A study of Mus musculus with 5 samples.

Results

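The p53 pathway was examined in dendritic cells of the mouse thymus through 35 genes, made up of Trp53 itself, its regulators and established targets. The genes were picked by symbol from textbook knowledge of the pathway, with earlier results of these data already known. All 35 were found among the 18051 genes of the count table. Of these, 34 had enough counts to be tested. Ddit4l, with 0, 1 and 8 counts in the irradiated libraries and 3 and 1 in the untreated ones, did not. Each gene was placed in 1 role: 5 in the p53 core and its feedback loop, 8 in cell cycle arrest, 12 in cell death and growth control, 6 in metabolism and stress, 3 in DNA repair, and the noncoding RNA Pvt1.

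The irradiated group held 3 libraries from C57BL/6J mice killed on day 4 after irradiation of the whole body (TBI), and the other group held 2 libraries from untreated C57BL/6J mice. Mice in both groups were 6 to 8 weeks old. Thymi were pooled, digested with enzymes and sorted by fluorescence for CD45, MHC class II and CD11c. No genetic change or further agent is named in the labels. The labels do not say whether replicates came from separate pools, so p-values measure the spread between these libraries, which may be technical.

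p53 is a transcription factor that is held at a low level by the ubiquitin ligase MDM2 and is stabilised when DNA is broken. It binds a response element made of a pair of similar decamers and raises genes that stop the cell cycle, repair DNA, alter metabolism or start apoptosis. It also raises Mdm2, which closes a negative feedback loop. Its own activity is set mainly at the protein level, which RNA counts do not measure. Thymic dendritic cells present antigen to developing thymocytes, a population known for its sensitivity to p53-dependent death after irradiation.

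Libraries held 7549053, 8428589 and 7940442 counts in the TBI group and 7346330 and 7227000 in the untreated group. One count was worth 0.127 to 0.145 CPM (counts scaled to a common library size) in TBI libraries and 0.123 to 0.126 CPM in untreated ones. Among libraries of a group, the chi-square per gene, which would be 1 for counting error alone, was 9.8 to 27.6 between TBI libraries, highest for the pairs with TBI replicate 1, and 4.89 between untreated libraries, so no library repeats another. Of 13 dendritic cell core genes, all present in every library, 8 were lower after TBI (61.5%, against 9.79% of all tested genes). Of the others 1 (Id2, log2 fold change 0.84) was higher and 4 did not pass, among them the MHC class II chaperone gene Cd74 (-0.10, adjusted p = 0.67). Itgax, which encodes CD11c, had 155, 217 and 238 CPM in TBI libraries, against 315 and 309.9 CPM in untreated libraries (adjusted p = 0.0417, and 0.0909 to 0.205 without untreated replicate 1, untreated replicate 2 or TBI replicate 2). Flt3, a growth factor receptor of dendritic cells, had 34.7, 41.5 and 34.5 CPM after TBI, against 312 and 343 CPM in untreated libraries.

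Half-site pairs close to the p53 consensus response element were looked for in RefSeq promoters (GRCm38.p6, the build also called mm10), each 300 bases long with 250 before the annotated start. The element has 20 positions and reads the same on both strands, and the C and G at the core of each half-site had to match. RefSeq promoters matched 28 of the 35 genes by symbol, with 36 promoters in all. Of those, 3 promoters (8.33%) held the element with at most 1 mismatch, against 0.067% of all 32851 promoters, and 8 (22.2%) held it with at most 3 mismatches, against 1.38%. The search was added after the expression values were seen. The genes had been picked as p53 targets and regulators, so their higher share is not an independent result. The best matches are shown because they let the sequence be set beside the expression of the same gene, with the element in capitals and the genomic region, strand and count of mismatches after each name.
Cdkn1a, chr17:29090908-29090967, plus strand, 1 mismatch: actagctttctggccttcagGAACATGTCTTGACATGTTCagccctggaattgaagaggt
Ccng1, chr11:40755442-40755501, minus strand, 1 mismatch: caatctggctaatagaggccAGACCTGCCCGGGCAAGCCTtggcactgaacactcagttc
Rps27l, chr9:66946276-66946335, plus strand, 1 mismatch: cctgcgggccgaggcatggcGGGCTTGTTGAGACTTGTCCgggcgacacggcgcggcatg
Ckap2, chr8:22185983-22186042, minus strand, 2 mismatches: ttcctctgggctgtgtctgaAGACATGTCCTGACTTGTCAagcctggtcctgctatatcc
Trp53, chr11:69580264-69580323, plus strand, 3 mismatches: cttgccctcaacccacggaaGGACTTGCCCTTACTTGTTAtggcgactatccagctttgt
Aen, chr7:78895937-78895956, plus strand, 3 mismatches: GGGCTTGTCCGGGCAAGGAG
In the GENCODE annotation the Cdkn1a, Ccng1, Ckap2 and Trp53 stretches lie upstream of the gene, the Rps27l stretch lies in an intron and the Aen stretch in an exon. Sesn1 was the other gene with a match at 3 mismatches. With at most 3 mismatches the element was held by 3 of 10 higher genes with a promoter, 0 of 2 lower genes and 4 of 15 that did not pass. With at most 2 mismatches it was held by 3 of the 10 higher genes, 0 of the 2 lower genes and 1 of the 15. Whether a match goes with a rise was not tested. Genes without a match in this window may hold elements elsewhere, and a match is a description of letters, not of binding.

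RNA of the cells sorted after TBI held more of the p21 gene Cdkn1a, of Mdm2 and of 10 other p53 targets, while Trp53 RNA itself did not pass the test. The largest rises were in Phlda3 (19.2-fold), the stress cytokine Gdf15 (9.90-fold) and Cdkn1a (6.88-fold). A smaller set fell: Trp53inp1, Sesn2, Ccng2, Ccnd1 and Pmaip1, the gene of the death factor NOXA. Of the 34 tested genes 17 changed at an adjusted p of 0.05, 12 higher and 5 lower. Over all 12046 genes tested 23.1% changed, 13.3% higher and 9.79% lower, so the pathway's 35.3% higher stood above the background share and its 14.7% lower was closer to it. At least 2-fold changes numbered 11 higher, against 9.23% of all genes, and 1 lower, against 6.17%. Groups did not overlap for 25 of the 34 (73.5%), against 56.1% of all tested genes. The list was chosen with earlier results of these data known, so these shares describe it and do not test it.

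The test was edgeR's quasi-likelihood F-test with Benjamini-Hochberg adjustment over all 12046 genes. Log2 fold changes are TBI minus untreated, given with a standard error. The median log2 fold change was 0.15 for the 34 genes and -0.01 for all tested genes. Without TBI replicate 2 both medians were 0.01. The median of the 34 was 0.40 without TBI replicate 1 and, with scaling by library size alone, -0.08, where the median of all tested genes was -0.23. With that scaling 36.8% of all calls were higher, against 57.6% with TMM scaling. The number of lower members was 2 without untreated replicate 1 and 1 without untreated replicate 2. In bulk RNA, fewer cells of a type and less RNA per cell cannot be told apart.

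**Figure D1:**
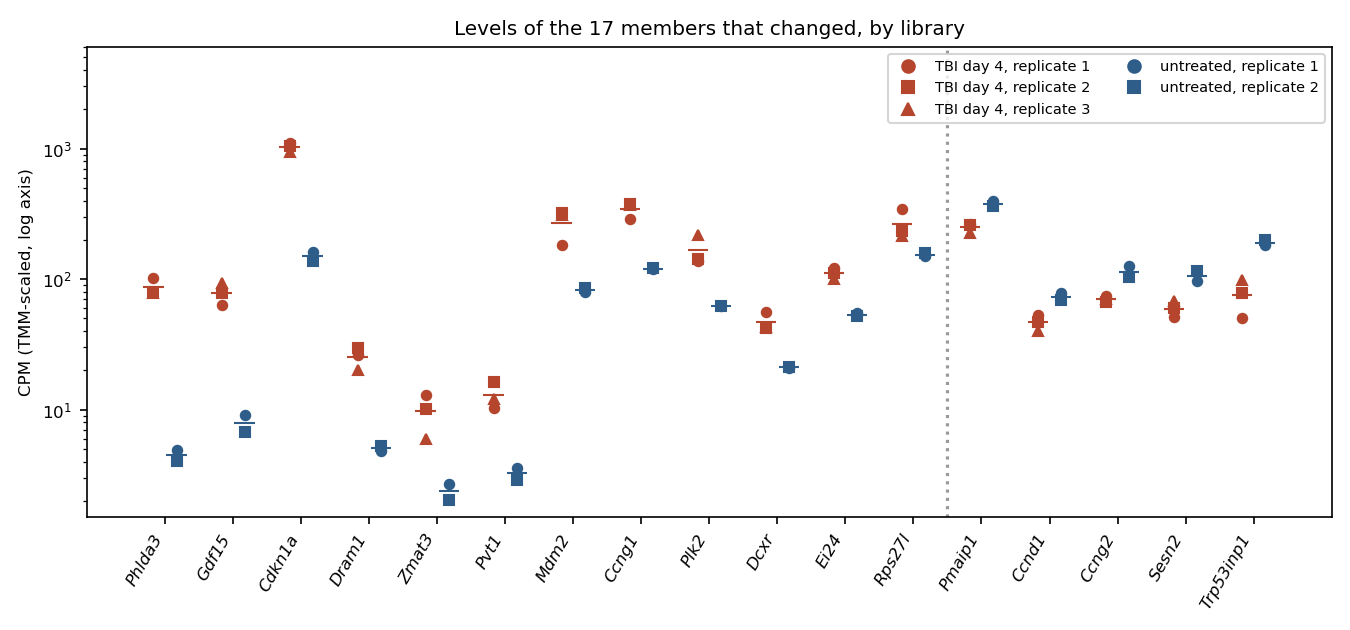
Level in CPM (log axis) of the 17 genes that passed the test, in TBI day 4 libraries (red, left) and untreated libraries (blue, right), with the group mean as a line and the replicate by shape, ordered by fold change. Groups do not overlap for any of them, and the dotted line separates the 12 higher from the 5 lower genes.

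In the p53 core and feedback loop, Mdm2 and Ccng1 rose and the other genes did not pass. Mdm2, the ubiquitin ligase that degrades p53, had 182, 321 and 311 CPM in TBI libraries, against 79.35 and 84.96 CPM in untreated libraries. All TBI values lay above both untreated values, with TBI replicate 1 the lowest of its group. The log2 fold change was 1.72 ± 0.25 (adjusted p = 0.00159). Ccng1, whose product cyclin G1 brings a phosphatase to MDM2, had 291, 379 and 366.5 CPM after TBI, against 119 and 121 CPM in untreated libraries. Its groups were also apart, and its log2 fold change was 1.52 ± 0.16 (adjusted p = 2.62e-04). The Ccng1 promoter above holds the element with 1 mismatch, 176 to 195 bases before the start.

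Trp53 had 121, 101 and 98.1 CPM in TBI libraries and 120 and 115 CPM in untreated libraries. These values overlapped, and the log2 fold change was -0.14 with a 95% interval of -0.48 to 0.20 (adjusted p = 0.542). Mdm4, which encodes a p53 inhibitor that pairs with MDM2, had 24.4, 29.1 and 24.6 CPM in TBI libraries and 27.5 and 33 CPM in untreated libraries. Its values overlapped as well, and its log2 fold change of -0.22 had an interval of -0.68 to 0.25 (adjusted p = 0.491). Ppm1d, the WIP1 phosphatase that switches p53 signalling off, had a log2 fold change of -0.30 ± 0.19 (adjusted p = 0.306) although its groups did not overlap. Of these 3 feedback inhibitors Mdm2 was the one whose RNA rose.

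**Figure D2:**
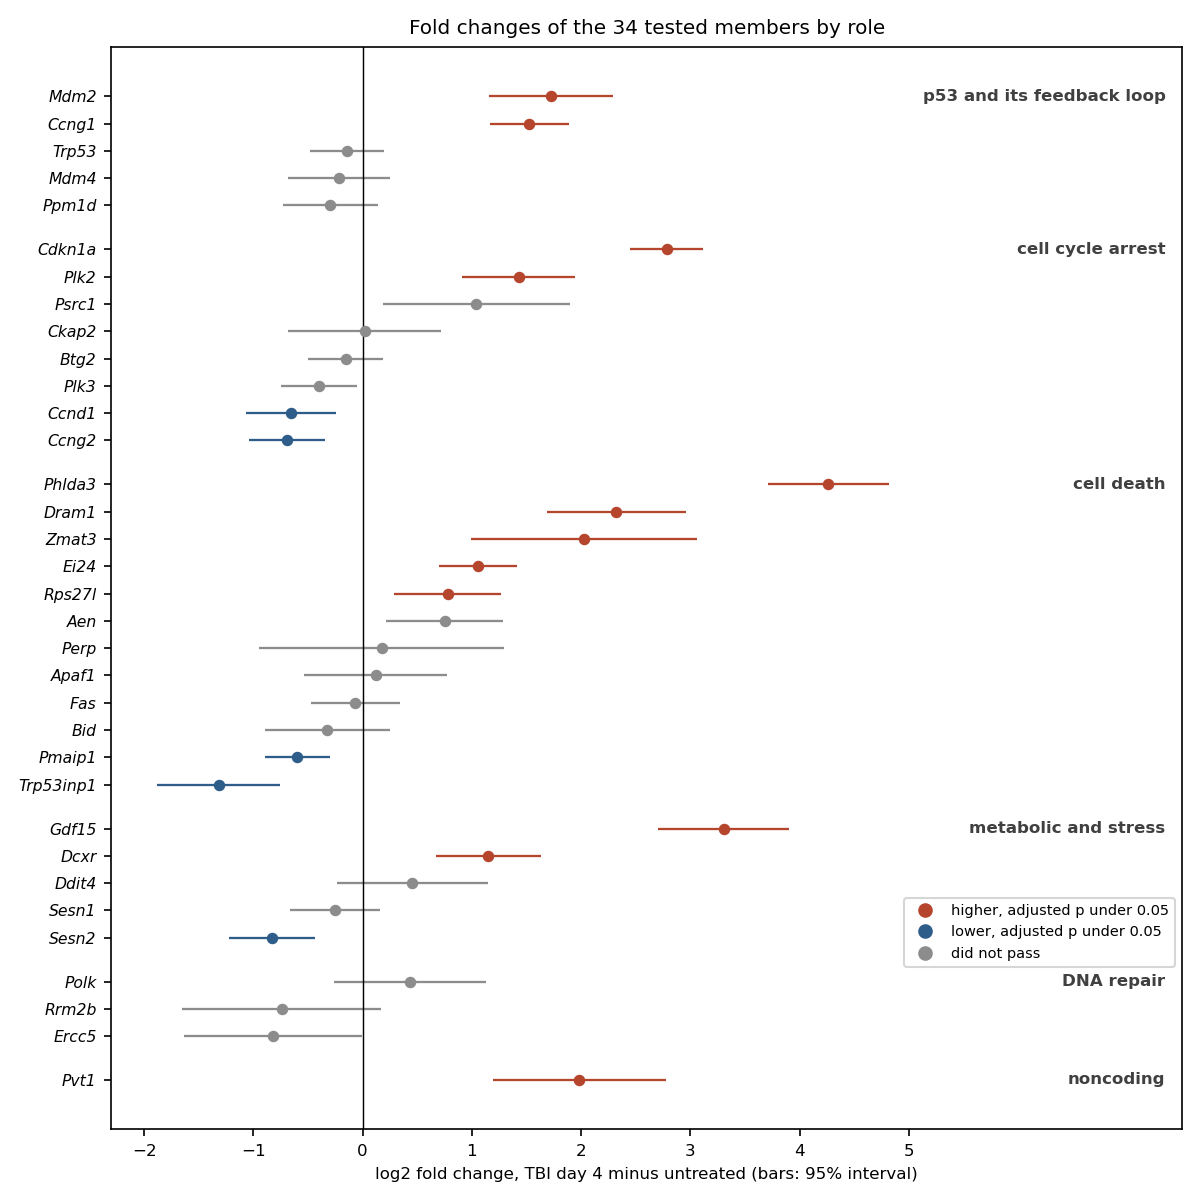
Log2 fold change (TBI day 4 minus untreated) of the 34 tested genes by role, with 95% intervals from the quasi-likelihood fit, in red where higher and blue where lower at an adjusted p under 0.05 and grey where the test was not passed. Values run from -1.32 for Trp53inp1 to 4.26 for Phlda3, and each of the arrest, death and metabolic roles has both red and blue points.

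Among the 8 genes placed in the arrest role 2 rose, 2 fell and 4 did not pass. The role takes in the cyclin D1 gene Ccnd1, which is not itself an arrest factor, so its fall is not the loss of one. Cdkn1a, the gene of the cyclin-dependent kinase inhibitor p21, lies on chromosome 17, 29090976 to 29100727. It had 1100, 1055 and 945 CPM in TBI libraries, against 161 and 139 CPM in untreated libraries. The TBI libraries lay close together and far above both untreated ones. Its log2 fold change was 2.78 ± 0.15 (adjusted p = 9.17e-06), and its promoter holds the element with 1 mismatch, 32 to 51 bases before an annotated start. Cdkn1a made up 23.1%, 23.5% and 20.3% of all counts of the 35 genes in TBI libraries, against 4.82% and 4.03% in untreated libraries.

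Plk2, a polo-like kinase known as a p53 target, had 138, 142 and 219 CPM after TBI, against 61.7 and 62.1 CPM in untreated libraries (1.43 ± 0.22, adjusted p = 0.00242). TBI replicate 3 was the highest and no TBI value reached down to the untreated ones. Ccng2, the cyclin G2 gene, had 74.7, 66.6 and 70.8 CPM in TBI libraries, against 125 and 104 CPM in untreated libraries. It fell by 0.69 on the log2 scale (SE 0.15, adjusted p = 0.0120), with all TBI values below both untreated ones. Its call was lost without untreated replicate 1 (adjusted p = 0.219) or untreated replicate 2 (0.0572). Ccnd1, the cyclin D1 gene, had 53.3, 47.1 and 39.8 CPM after TBI, against 77.6 and 69.3 CPM in untreated libraries. It fell by 0.65 (SE 0.18, adjusted p = 0.0317), but its call was lost in 5 of 14 alternatives: without untreated replicate 1 (0.291), untreated replicate 2 (0.156), TBI replicate 2 (0.0839) or TBI replicate 3 (0.0730), and with the replicate block (0.0980). GENCODE places 23.4% of the Ccnd1 exon bases over a gene on the opposite strand, and SMART-Seq libraries do not mark strand, so reads of both cannot be told apart.

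Btg2, an antiproliferative gene, was the most abundant of the 35 by CPM per kilobase of exon in both groups, with 1304, 949.9 and 1175 CPM in TBI libraries and 1222 and 1326 CPM in untreated libraries. Its values overlapped (log2 fold change -0.16 ± 0.15, adjusted p = 0.496). The spindle genes Psrc1 and Ckap2 and the kinase gene Plk3 did not pass either. Psrc1 had 1.04 ± 0.38 (adjusted p = 0.0824) with 53, 90 and 52 counts after TBI against 37 and 30 in untreated libraries. Plk3 had -0.40 ± 0.15 (adjusted p = 0.0981), and passed when libraries were scaled by size alone (-0.62, adjusted p = 0.0225). Ckap2, whose promoter holds the element with 2 mismatches, had 0.02 ± 0.31 with overlapping groups. Btg2, Plk2 and Plk3 are also immediate-early genes in many cells. Of 13 other immediate-early and heat shock genes 7 were higher and 0 lower by edgeR (7 and 0 at an unadjusted p of 0.05). That was 53.8% higher, against 13.3% of all tested genes. Ier3 and Dusp1 came first, and Dusp1 is also counted among the 7 glucocorticoid target genes below. Fos (log2 fold change 0.09), Jun (0.00), Fosb (0.23) and Nr4a1 (-0.14) did not pass. Neither did the heat shock genes Hspa1a (-0.49) and Hspa1b (-0.72). Their untreated libraries differed, with 314 and 970 CPM for Hspa1a and 428 and 1287 CPM for Hspa1b. All TBI values of both lay below untreated replicate 2 but not all below untreated replicate 1. The summed level of the 13 was 9116 to 11750 CPM in TBI libraries and 6206 to 7702 CPM in untreated libraries. Its part in these results was not tested.

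The 12 death and growth control genes held the largest rise and the largest fall. Phlda3, which encodes a small protein that keeps the kinase AKT off the membrane, lies on chromosome 1, 135766119 to 135769136. It had 102, 79.25 and 78.9 CPM in TBI libraries, against 4.94 and 4.05 CPM in untreated libraries. In counts that is 705, 626 and 604 after TBI, against 40 and 32. Its log2 fold change was 4.26 ± 0.24 (adjusted p = 1.28e-05). By mean CPM per kilobase it moved to rank 6 of the 35 in TBI libraries, against rank 26 in untreated libraries.

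Dram1, a lysosomal membrane protein of autophagy, had 26.01, 29.9 and 20.2 CPM after TBI, against 4.81 and 5.31 CPM in untreated libraries (2.32 ± 0.28, adjusted p = 5.68e-04). Zmat3, an RNA-binding zinc finger protein, had 13.01, 10.1 and 6.01 CPM after TBI, against 2.715 and 2.02 CPM in untreated libraries (2.03 ± 0.45, adjusted p = 0.0134). The untreated Zmat3 values rest on 22 and 16 counts, and its call was lost without untreated replicate 1 (adjusted p = 0.0718) or untreated replicate 2 (0.124). Both genes were low but clear of the untreated range in every TBI library.

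Ei24, a membrane protein of the endoplasmic reticulum, had 122, 111 and 99.8 CPM after TBI, against 54.8 and 52.2 CPM in untreated libraries (1.05 ± 0.16, adjusted p = 0.00178). Rps27l, a ribosomal protein gene, had 345, 233 and 212 CPM after TBI, against 149 and 157 CPM in untreated libraries (0.78 ± 0.21, adjusted p = 0.0312). TBI replicate 1 was the highest for both. Reads of Rps27l can be shared with its near copy Rps27 and with pseudogenes, so its value is uncertain. The Rps27l call was lost without untreated replicate 1 (adjusted p = 0.184), untreated replicate 2 (0.146) or TBI replicate 2 (0.0564), and with library size alone (0.0753).

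The 5 genes of this role that did not pass and the 2 that fell include several direct actors of apoptosis. Pmaip1, the gene of the BH3-only protein NOXA, had 263, 262 and 227 CPM in TBI libraries, against 394 and 365 CPM in untreated libraries. Its TBI values lay below both untreated values, and it fell by 0.60 on the log2 scale (SE 0.13, adjusted p = 0.0116). That call was lost without untreated replicate 1 (adjusted p = 0.152) or untreated replicate 2 (0.0845). Trp53inp1, whose product promotes autophagy and death, had 50.7, 78.5 and 99.1 CPM after TBI, against 181 and 199 CPM in untreated libraries (-1.32 ± 0.24, adjusted p = 0.00563). It was the only tested gene of the 35 that was at least 2-fold lower.

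The death receptor gene Fas averaged 41.3 ± 3.92 CPM in TBI libraries and 43.2 ± 3.04 CPM in untreated libraries (SD, n = 3 and n = 2), with overlapping groups (log2 fold change -0.07, 95% interval -0.48 to 0.34). Apaf1, the apoptosome scaffold, had 32.4, 63.05 and 63.5 CPM after TBI and 46.5 and 51.1 CPM in untreated libraries. Its TBI replicate 1 lay below and the other two TBI libraries above the untreated ones, and without that replicate Apaf1 was higher (log2 fold change 0.37, adjusted p = 0.0464). The BH3-only gene Bid (-0.32 ± 0.25) and the junction protein gene Perp (0.17 ± 0.49) did not pass. Bid shares 17.7% of its exon bases with Bcl2l13 on the opposite strand. The nuclease gene Aen, with its exonic element at 3 mismatches, had 27.02, 34.05 and 41.01 CPM after TBI and 19.25 and 21.2 CPM in untreated libraries. It narrowly missed the threshold (0.75 ± 0.24, adjusted p = 0.0523), and passed without TBI replicate 1 (0.00621), with the stricter filter (0.0486) and by DESeq2 (0.0309).

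In the metabolic and stress role 2 genes rose, 1 fell and 2 did not pass. Gdf15, a secreted cytokine of the transforming growth factor family raised by many kinds of cell stress, had 63.15, 78.9 and 93.5 CPM in TBI libraries, against 9.13 and 6.70 CPM in untreated libraries. The lowest TBI value was several times the highest untreated one. Its log2 fold change was 3.31 ± 0.26 (adjusted p = 5.98e-05). Dcxr, a reductase of sugars and dicarbonyls, had 56.1, 42.4 and 42.7 CPM after TBI, against 20.98 and 21.4 CPM in untreated libraries (1.15 ± 0.21, adjusted p = 0.00514). Its call was lost without untreated replicate 1 (adjusted p = 0.0706) or untreated replicate 2 (0.0655).

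Sesn2, a sestrin that restrains the growth regulator mTORC1 when amino acids or redox state change, had 50.9, 59.75 and 67.4 CPM after TBI, against 96.75 and 115 CPM in untreated libraries. It fell by 0.83 on the log2 scale (SE 0.17, adjusted p = 0.00960), a call lost without untreated replicate 2 (0.148). Sesn1, the sestrin best known as a p53 target, had 52.6, 51.3 and 58.0 CPM in TBI libraries and 55.3 and 73.1 CPM in untreated libraries, with overlapping groups (-0.25 ± 0.18, adjusted p = 0.359). Ddit4, also an inhibitor of mTORC1, had 11.3, 8.23 and 12.7 CPM in TBI libraries and 7.90 and 7.71 CPM in untreated libraries (0.46 ± 0.30, adjusted p = 0.315). Ddit4 is raised by glucocorticoids as well, and of 7 glucocorticoid target genes 5 were higher and 0 lower by edgeR (5 and 0 at an unadjusted p of 0.05), against 13.3% higher among all genes. Without untreated replicate 1 or untreated replicate 2 there were 2 higher. Ddit4l was too low to test.

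Members of 4 related gene pairs had different calls. The differences within a pair were not tested, but Ccng1 rose and Ccng2 fell, each past the threshold with all libraries, and Mdm2 and Plk2 rose while Mdm4 and Plk3 did not pass. Sesn2 fell and Sesn1 did not pass. The calls of Ccng2 and Sesn2 depend on single untreated libraries, as given above.

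**Figure D3:**
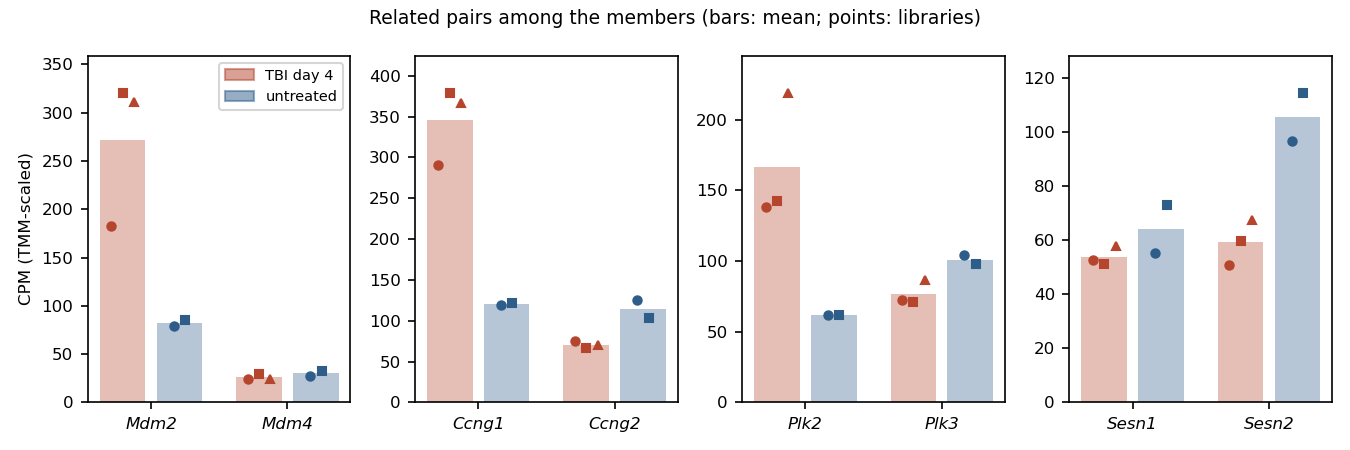
CPM of 4 related gene pairs in TBI day 4 (red) and untreated (blue) libraries, with bars for group means and points for libraries (replicate 1 circle, 2 square, 3 triangle). Mdm2, Ccng1 and Plk2 stand higher in red with no overlap. Ccng2, Sesn2 and Plk3 stand lower in red with no overlap, though Plk3 did not pass the test. Mdm4 and Sesn1 overlap.

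None of the 3 DNA repair genes passed by edgeR, DESeq2 or limma-voom, and 1 (Ercc5) had an unadjusted p under 0.05. Ercc5, the XPG nuclease of nucleotide excision repair, had 43, 116 and 111 counts after TBI, against 164 and 170 in untreated libraries (-0.82 ± 0.36, adjusted p = 0.139). TBI replicate 1 was the lowest of all. Rrm2b, the p53-induced subunit of ribonucleotide reductase, had 49, 53 and 24 counts after TBI and 80 and 71 in untreated libraries (-0.74 ± 0.40, adjusted p = 0.223). Polk, a translesion DNA polymerase, overlapped between groups (0.43 ± 0.30). The noncoding RNA Pvt1, encoded beside Myc, had 71, 128 and 93 counts in TBI libraries, against 29 and 23 in untreated libraries. It rose (1.98 ± 0.35, adjusted p = 0.00412), and its call was lost without untreated replicate 2 (adjusted p = 0.0581).

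Levels were compared between genes as CPM per kilobase of GENCODE exon. Btg2 (417 ± 65.3 in TBI, 464.5 ± 26.8 in untreated libraries, SD, n = 3 and n = 2) and Rps27l (323 ± 87.8 and 188 ± 7.19) came first in both groups. Cdkn1a had rank 3 after TBI with 291 ± 22.5, against 42.25 ± 4.498 and rank 4 in untreated libraries, and did not differ from Rps27l beyond the spread in TBI libraries. Pmaip1 had 91.8 ± 7.43 and rank 5 in TBI libraries, against 139 ± 7.635 and rank 3 in untreated libraries. Phlda3 (55.6 ± 8.46) and Mdm2 (53.4 ± 15.2) were neighbours in TBI libraries that did not differ beyond their spread. Zmat3 was among the lowest in both groups despite its rise, at 0.850 ± 0.308 after TBI and 0.207 ± 0.0428 in untreated libraries.

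TBI libraries also differed among themselves. TBI replicate 1 had the highest of the 3 TBI values for 13 of the 34 genes and the lowest for 15. The ratio of the highest to the lowest TBI value was 1.16 for Cdkn1a and Pmaip1, 1.29 for Phlda3, 1.76 for Mdm2 and 1.95 for Trp53inp1. Without TBI replicate 1 there were 14 higher and 5 lower genes, Aen and Apaf1 being the additional ones, and over all genes 2148 higher and 1780 lower.

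Other genes of the pathway were taken from a second textbook list of 38 further p53 targets, also chosen with earlier results known. Of these, 35 were tested. The test called 12 of them higher (34.3%, against 13.3% of all tested genes) and 1 lower (2.86%, against 9.79%), and left 22 uncalled. Their median log2 fold change was 0.53. Ephx1, an epoxide hydrolase, had 511, 475 and 449 CPM after TBI, against 42.7 and 40.8 CPM in untreated libraries (3.52 ± 0.15). The lipid transfer gene Pltp (2.84 ± 0.12), the iron reductase gene Steap3 (4.57 ± 0.31) and the membrane protein gene Stom (1.31 ± 0.15) were the others with the smallest p. Some further genes were named after their values were seen. The pore-forming death gene Bax had 251, 209 and 186 CPM after TBI, against 86.5 and 82.05 CPM in untreated libraries (1.35 ± 0.17, adjusted p = 6.42e-04). Bbc3, the gene of the BH3-only protein PUMA, had 20.2, 25.1 and 23.4 CPM after TBI, against 9.996 and 13.4 CPM in untreated libraries (0.97 ± 0.24, adjusted p = 0.0226). The death receptor gene Eda2r had 19, 9 and 16 counts after TBI, against 0 and 1 in untreated libraries (4.67 ± 1.20, adjusted p = 0.0244). Its call was lost in 4 of 13 alternatives, where its log2 fold change ran from 3.81 to 6.94 over all 13. The stricter filter left it untested. Trp53i11 was the lower one (-0.77 ± 0.14).

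The higher calls in this second list numbered 7 without untreated replicate 1 and 6 without untreated replicate 2. Calls of Bbc3 were lost without untreated replicate 1 (adjusted p = 0.254), untreated replicate 2 (0.0886) or TBI replicate 2 (0.0622), and with library size alone (0.0548). Bax and Bbc3, which act at mitochondria, rose, while Pmaip1, of the same BH3-only class as Bbc3, fell.

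Cell cycle genes that p53 is known to lower through p21 were measured next to Cdkn1a. Of 24 such genes 0 were higher and 1 was lower by edgeR (4.17% called, against 23.1% of all tested genes). There were 4 higher and 5 lower by edgeR at an unadjusted p of 0.05, and 1 higher and 1 lower by DESeq2. The lower gene was the proliferation marker Mki67, with 40.9, 29.4 and 35.1 CPM in TBI libraries, against 60.7 and 58.9 CPM in untreated libraries (-0.77 ± 0.19, adjusted p = 0.0216). Its call was lost when any library other than TBI replicate 1 was left out, with adjusted p of 0.0542 to 0.182. The median log2 fold change of the 24 was -0.02, close to that of all genes, but the set was not uniform. At an unadjusted p of 0.05 by edgeR, the 4 higher genes were Mcm5, Mcm6, Rrm2 and Tyms (0.32 to 0.60). The 5 lower genes were Mki67, Foxm1, Kif20a, Bub1b and Top2a (-0.77 to -0.35). Without TBI replicate 1 there were 3 higher and 6 lower, and with library size alone 0 higher and 6 lower.

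**Figure D4:**
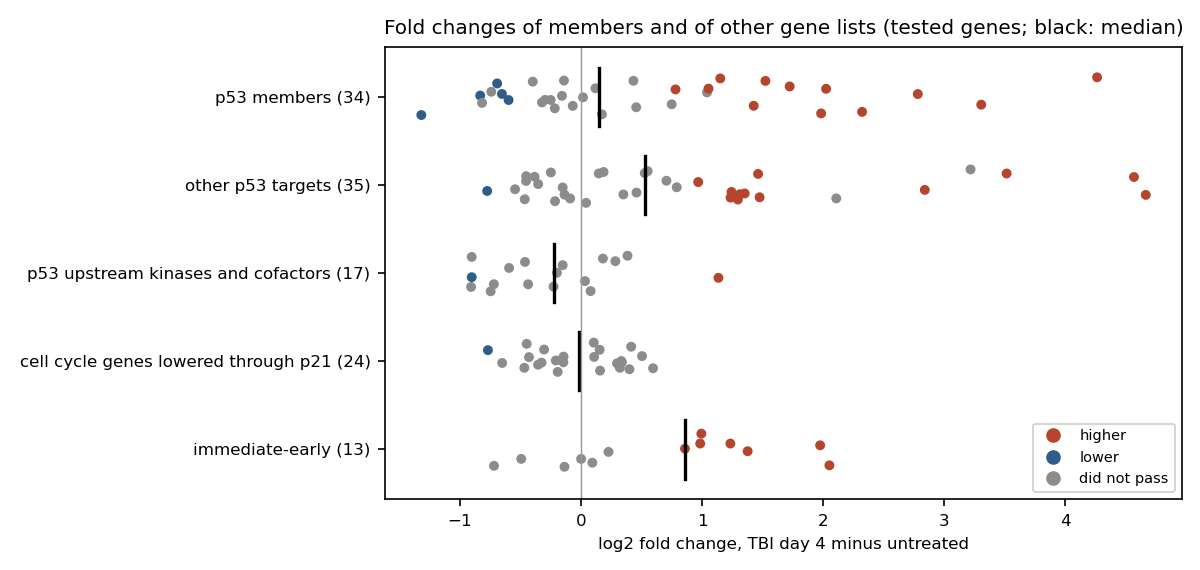
Log2 fold change (TBI day 4 minus untreated) of each tested gene in the 34 p53 genes and 4 other lists, in red where higher, blue where lower and grey where the test was not passed, with the median as a black line and points spread vertically for clarity. The 2 lists of p53 targets reach above 4, while the 24 cell cycle genes stay between -0.77 and 0.60.

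Markers of cell types moved between the groups along with these genes. Over all tested genes 13.3% were higher and 9.79% lower. Of 14 macrophage markers 12 were higher and 0 lower, and their summed level was 50530 to 56100 CPM in TBI libraries, against 5067 and 6183 CPM in untreated libraries. All 10 type 1 dendritic cell markers were lower, at 1391 to 1718 CPM in TBI libraries, against 5741 and 6115 CPM. All 12 plasmacytoid dendritic cell markers were lower too, at 454 to 587 CPM in TBI libraries, against 3642 and 3713 CPM. Of 13 T cell and thymocyte markers 8 were lower and 2 higher, summing to 1781 to 1854 CPM in TBI libraries, against 3213 and 3657 CPM. The higher ones were Cd3g and Thy1, and Cd3d, Cd3e and Lck did not pass (log2 fold changes 0.07, 0.00 and 0.04). Among the lower ones, Cd8a is also in the type 1 and Cd4 in the type 2 dendritic cell list, so the sum is not a measure of T cell content. Monocyte markers summed to 29430 to 34870 CPM after TBI, against 2660 and 3138 CPM, but most of that was Lyz2 (23930 to 31750 CPM, against 1681 and 2159 CPM), which is also in the macrophage list. Of the 8 monocyte markers 4 were higher and 3 lower, the lower ones being Ly6c2, Plac8 and Treml4. Type 2 dendritic cell markers (6 of 8 higher, 1 lower) summed to 4035 to 5088 CPM, against 1562 and 1793 CPM. Of that sum Csf1r, also in the macrophage list, gave 1040 to 1650 CPM, against 272.6 and 331 CPM. Itgam gave 857 to 1435 CPM, against 121 and 151 CPM. Sirpa did not pass and Cd4 was the lower one, so the sum is not a measure of type 2 dendritic cell content. Natural killer markers summed to 935 to 1163 CPM after TBI, against 87.4 and 89.6 CPM, with 7 of 8 higher. Of 10 tested stromal and epithelial markers 2 were higher and 3 lower, summing to 52.2 to 69.5 CPM after TBI, against 96.34 and 98.97 CPM. In that list the fibroblast collagen gene Col3a1 had 165, 82 and 151 counts after TBI, against 0 and 1 in untreated libraries, the endothelial gene Cdh5 had 6, 7 and 3 counts, against 193 and 202, and Pdgfra had 0 in every library. Of 6 tested B cell markers 4 were higher and 2 lower. Of 8 mature CCR7 dendritic cell markers 2 were higher and 3 lower. Of 6 tested neutrophil markers 2 were higher and 1 lower. The neutrophil list summed to 411 to 558 CPM after TBI. It had 35.4 CPM in untreated replicate 1 and 297.5 CPM in untreated replicate 2, so the untreated libraries differed as well. The part of these shifts in the p53 gene results was not tested.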

How the data were processed

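RNA of sorted thymic dendritic cells was sequenced from 3 TBI and 2 untreated libraries made with a SMART-Seq kit, which amplifies by PCR without molecular identifiers. Per the submitters' processing notes, STAR 2.5.2a, featureCounts 1.6.0 and edgeR were used with the mm10 build. The file as deposited holds raw counts, 1 whole number per gene symbol and library. The annotation, strand setting, treatment of multiply mapped reads and radiation dose are not given in the sources used here. A treatment note in the labels names another day than the titles, which give day 4.

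Counts were tested in R 4.3.3 with edgeR 4.0.16: TMM scaling, filterByExpr by group with its count minimum of 10 and total of 15, glmQLFTest with group as the only term, and Benjamini-Hochberg adjustment at 0.05. Standard errors were derived from the F statistic and 95% intervals from its degrees of freedom. CPM use TMM-scaled library sizes. Exon lengths and overlaps came from GENCODE M21 (GRCm38). Alternatives used DESeq2 1.42.0 and limma 3.58.1 (voom). In simulated data over 11793 genes, 97 genes were changed by 1 and 99 by 2 on the log2 scale. Of these edgeR recovered 47.4% and 87.9%, with 8 false calls. In the real data a far larger share of genes (23.1%) was called, so these rates may not carry over. Figures used matplotlib 3.10.9.

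The 35 genes, their roles and the other lists were chosen with earlier results of these data known. Values in every library are given for genes past the threshold and at least 2-fold changed and for Trp53, Mdm2, Mdm4 and Cdkn1a. Genes outside the 35 are up to 4 per list with the smallest p, besides those said to be chosen after their values were seen, and the marker genes, Ep300 and Trp53bp1, chosen likewise.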

Additional observations from a re-analysis of the deposited data

How the results depend on the processing

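Of the 17 calls, 9 (Mdm2, Ccng1, Cdkn1a, Plk2, Ei24, Phlda3, Trp53inp1, Dram1 and Gdf15) were made under all 14 alternatives, and no called gene of the 35 changed sign. The other 8 were each lost under 1 or more alternatives. Scaling by library size alone gave 2129 lower genes and a median of -0.08 for the tested p53 genes. Leaving out 1 library at a time gave 810 to 2148 higher and 423 to 1780 lower genes in the whole table, 8 to 14 higher and 1 to 5 lower p53 genes, and a median of 0.01 to 0.40. Leaving out either untreated library leaves 1, whose spread is taken from the irradiated group, and calls over all genes fell (815 and 423 without untreated replicate 1, 810 and 423 without untreated replicate 2). Correlations of same-numbered deviations were -0.016 and -0.01. The deviations of the 2 untreated libraries mirror each other, so these values cannot show whether same-numbered libraries share a pool or day. With the replicate block there were 12 higher and 4 lower p53 genes, Ccnd1 being lost (adjusted p = 0.0980), and 1493 higher and 1284 lower genes in the whole table. Replicate 3 exists only in the TBI group, so its library adds nothing to the contrast in this fit. The replicate block is therefore not independent of the alternative without TBI replicate 3. Counts were low in untreated libraries for Zmat3 (22 and 16), Pvt1 (29 and 23) and Perp (45 and 31), which limits their precision. The same holds for Psrc1 (37 and 30), Phlda3 (40 and 32) and Dram1 (39 and 42).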

Other observations

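Of 20 kinases and cofactors upstream of p53, 19 were in the table and 17 were tested: 1 was higher, 1 was lower and 15 did not pass, a share of 11.8% called against 23.1% of all tested genes. The checkpoint kinase gene Chek1 had 17.05, 12.8 and 15.15 CPM in TBI libraries, against 6.42 and 7.21 CPM in untreated libraries (log2 fold change 1.14 ± 0.27, edgeR adjusted p = 0.0179). The acetyltransferase gene Crebbp had 18.1, 31.8 and 35.8 CPM after TBI, against 54.4 and 52.5 CPM in untreated libraries (-0.90 ± 0.28, adjusted p = 0.0472). The acetyltransferase gene Ep300 (-0.90) and the damage response gene Trp53bp1 (-0.91) did not pass. Both were lowest in TBI replicate 1. Ep300 had 76, 191 and 318 counts after TBI, against 423 and 345 in untreated libraries. Trp53bp1 had 10, 147 and 134 counts after TBI, against 213 and 166 in untreated libraries. Sirt1, a deacetylase of p53 (-0.75 ± 0.25, adjusted p = 0.0631), and Prkdc, a DNA damage kinase gene (-0.72 ± 0.26, adjusted p = 0.0842), did not pass either. Groups did not overlap for 11 of the 17 (64.7%), against 56.1% of all tested genes. Neither Chek1 nor Crebbp passed without untreated replicate 1 or 2, and the call of Crebbp was also lost without TBI replicate 2 (0.0898) and with no filter on low counts (0.0554). There were 4 lower genes with the replicate block, without TBI replicate 3 and with library size alone, and 3 without TBI replicate 1.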
